A study of Homo sapiens with 12 samples.

Results

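The genes described here encode the machinery that copies DNA and the regulators that start copying at the G1/S transition. Their members were a list of 55 human gene symbols in 10 role classes, matched by Ensembl identifier to a table of 12725 genes. All 55 were measured, since the list was limited to symbols present in that table. The count therefore cannot show whether a filter on low values removed other genes of this process. The lowest read count of any member in any library was 72.

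The study measured transcripts in Ramos, a human B cell line established from a Burkitt lymphoma, in which a lentiviral vector was used to raise miR-28. The vector, pTRIPZ, makes its insert and a red fluorescent protein (RFP) when doxycycline is added. The 12 libraries form 6 sample pairs, each with a miR-28 library and a scramble library, and were prepared in 2 batches, with pairs 1, 2 and 3 in batch 1 and pairs 4, 5 and 6 in batch 2. Libraries held 15404730 to 37876636 reads over the measured genes.

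The miR-28 group (n = 6) carried the vector with miR-28, and the scramble group (n = 6) carried it with a scrambled sequence. Both groups were transduced, selected with 0.4 µg/ml puromycin, given 0.5 µg/ml doxycycline for 2 days and sorted for RFP+ cells. The scramble libraries therefore share the vector, both drugs and the sort, and no untransduced library was analysed here. A further label, XENO, has the value 1 in pairs 1, 4 and 5, the value 2 in pairs 2 and 6 and none in pair 3, and its meaning is not stated. The sample descriptions name pairs 4 and 5 as repeats (bis and tris) of pair 1, and pair 6 as a repeat (bis) of pair 2, so each group holds 3 distinct samples by name, which the XENO values follow. What was repeated is not stated, and p-values over 6 pairs are too small if repeats share cells. They measure only the spread between these libraries.

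Replication starts in G1, when the origin recognition complex, CDC6 and CDT1 load the MCM helicase onto origins. Cyclin D kinases and then cyclin E with CDK2 release E2F factors from the retinoblastoma protein, and E2F switches on many genes of replication and of nucleotide supply. In S phase, CDC45 and GINS join the MCM ring as the active helicase, polymerases copy both strands behind it, and PCNA, the sliding clamp, holds polymerases on DNA. Burkitt lymphoma cells divide fast, under a translocated MYC gene, and express this programme strongly.

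The labels were checked against markers. All 16 listed B cell and Burkitt lymphoma markers were measured, and their summed level was 13510 to 15849 CPM in the scramble libraries and 14225 to 15592 CPM in the miR-28 libraries. No listed myeloid or epithelial marker was measured (0 of 8 and 0 of 5), and 1 of 7 stromal and endothelial markers was, at up to 2.39 CPM. Of 13 T cell markers 5 were measured, summing to 19.7 to 142 CPM in scramble and 41.3 to 170.4 CPM in miR-28 libraries. MIR28, the gene of the microRNA, was at 0 in all 6 scramble libraries and between 0.98 and 3.16 CPM in the 6 miR-28 libraries.

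Some libraries stood apart. Reads of the mitochondrial genome made up 7.45% of the scramble library of pair 3 and 3.43% of the miR-28 library paired with it, and 1.19% to 2.88% of the other 10 libraries. The scramble library of pair 6 was the shallowest, with 15404730 reads against 25844558 in its partner. Results that rest on pairs 3 and 6, the pairs with the largest median differences of the members, are given with and without them.

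The promoters of the members were read first, since E2F factors act there. RefSeq promoters (GRCh38.p14, 250 bases before to 50 bases after the start) were found for 47 of 55 members; those of MCM4, MCM5, GINS4, POLD3, RPA2, RPA3, CCNE2 and CDK2 were not in that table. The E2F words searched were TTTCCCGC, TTTCGCGC, TTTGCCGC and TTTGGCGC, on both strands, with overlapping words counted separately. At least 1 such word stood in 23 of 47 member promoters (48.9%, Wilson 95% interval 35.3% to 62.8%), against 908 of 27305 promoters in the whole table (3.33%). Among measured genes the share was 5.67%, and among 45 promoters of mitosis genes, listed for comparison, it was 4.44%. Sites of 7 members follow, each written 5′ to 3′ on the strand of its gene, with the E2F word in capitals; they were chosen to show the word in most role classes and in both orientations.
E2F1, 20 bases before the start: aaaaaggaTTTGGCGCgtaaaagt
E2F1, 33 bases before the start: gctctttcGCGGCAAAaaggattt
CDT1: gggcgcccGCGGGAAAtttggcgg
MCM6: tggtcaggTTTGGCGCgaaatctc
GINS2: tcgccgtgGCGGGAAAacggcggc
PCNA: cgtcagggGCGGGAAAaggcgtgc
POLA2: gctcccggTTTCGCGCatgcgtgc
LIG1: tcacccctTTTCCCGCcctcctcc

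These windows lie on GRCh38.p14 at chr20:33686390-33686413 and chr20:33686403-33686426 for E2F1 and at chr2:135876518-135876541 for MCM6, all on the minus strand. The windows of GINS2, PCNA and LIG1, also on the minus strand, lie at chr16:85688970-85688993, chr20:5126666-5126689 and chr19:48170443-48170466. CDT1 and POLA2 are on the plus strand, at chr16:88803746-88803769 and chr11:65261901-65261924. MCM6 held the most words of any member, 4, as a pair of overlapping words 86 and 90 bases before the start and another pair 148 and 152 bases before it.

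A pair of other motifs was counted in the same windows. CCAAT, bound by the factor NF-Y, was in 55.3% of member promoters, 35.7% of all promoters, 38.0% of those of measured genes and 73.3% of mitosis promoters. TTTGAA, the core of the cell cycle homology region bound by DREAM and MuvB complexes in mitotic genes, was in 1 of 47 member promoters (2.13%, that of RRM1), 15.4% of all and 66.7% of mitosis promoters. These matches describe letters in a window and show no binding. Members with an E2F word had a median log2 fold change of 0.22 (23 genes) and those without it one of 0.21 (24 genes).

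Levels differed more between pairs than between the groups. The mean over members of log2(CPM + 1) was 6.98, 6.88, 5.51, 5.89, 7.18 and 5.80 in the scramble libraries of pairs 1 to 6, and 6.95, 6.98, 6.30, 5.87, 7.14 and 6.38 in the miR-28 libraries. Pairs 1, 2 and 5 were high in both groups, pair 4 was low in both, and pairs 3 and 6 were low in the scramble library and intermediate in the miR-28 library. That order does not follow batch, and it does not follow the XENO values. The scramble library of pair 3 was the lowest of the 12 for 43 members, and the scramble library of pair 5 was the highest for 29.

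**Figure D1:**
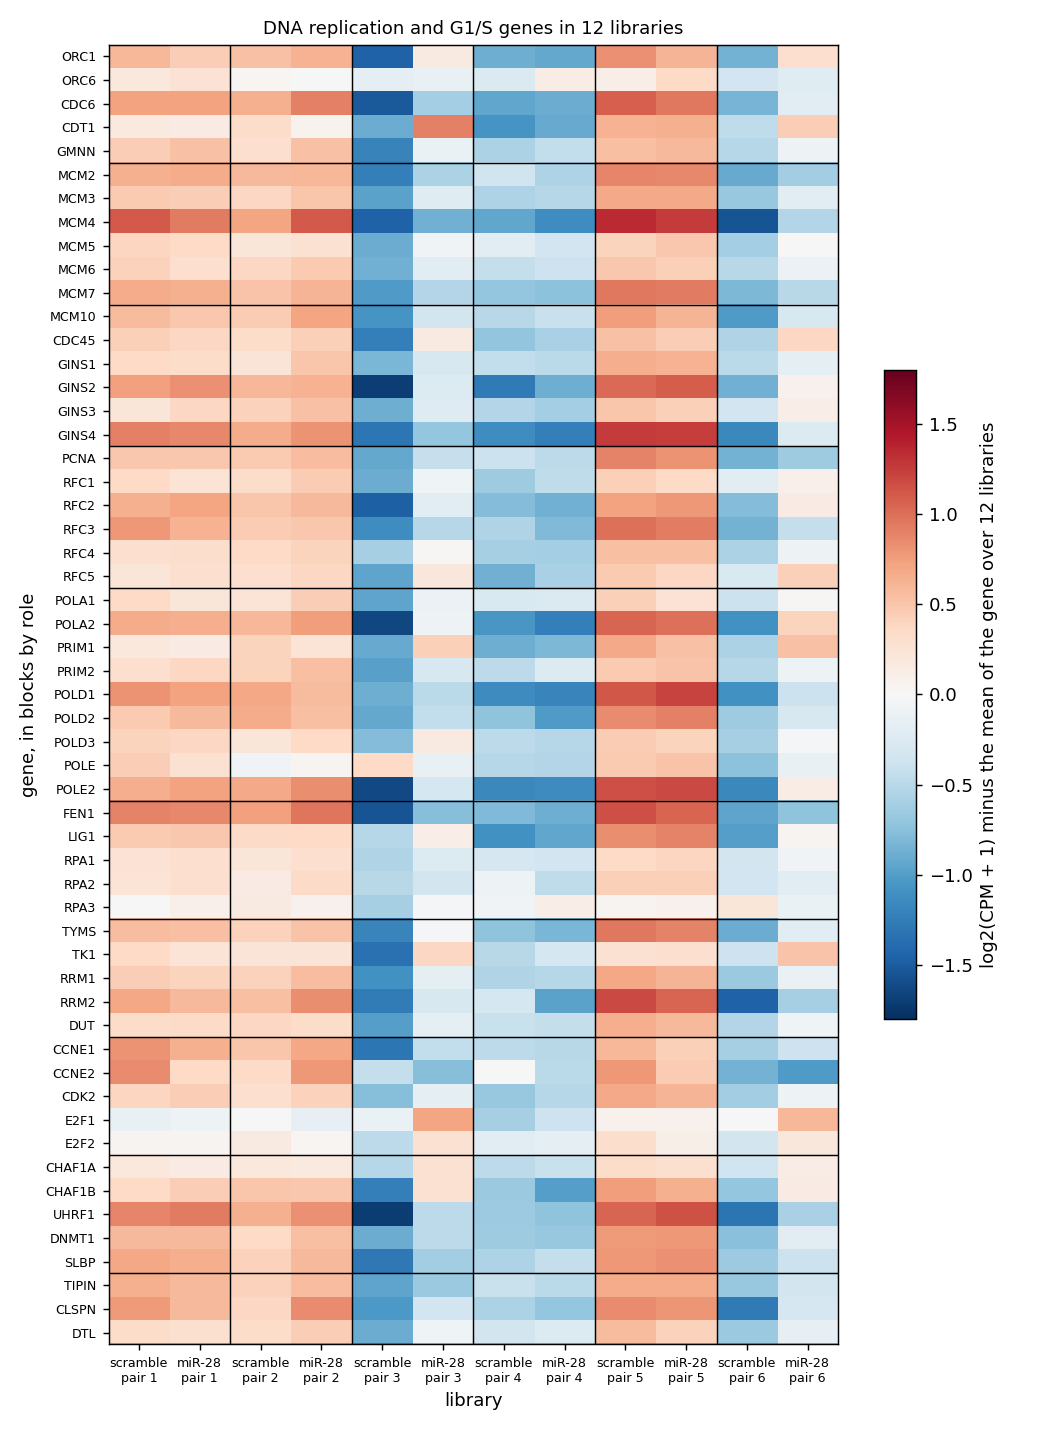
Level of each of the 55 genes in each of the 12 libraries, as log2(CPM + 1) minus the gene's own mean; rows are in blocks by role and columns in pairs. The scramble library of pair 3 is the bluest column, the lowest for 43 genes, and the libraries of pairs 1, 2 and 5 are red for most genes.

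The members rose and fell together across libraries. The median Pearson r of a member with the mean of the other members was 0.97 over the 12 libraries, which share their pairs, and 44 of 55 members were over 0.9. The exceptions included E2F1 (0.16), RPA3 (0.46), POLE (0.63), ORC6 (0.72), CDT1 (0.75), CCNE2 (0.76), E2F2 (0.76) and TK1 (0.79). Genes outside the list also followed the mean of the members this closely, such as USP13 (r = 0.995) and ACOT7 (0.994). How many of all genes did so is not given here, so a high r is not particular to the members. The range between the lowest and the highest library had a median of 1.79 log2 units over members, against 1.04 over the 10388 genes with a mean of 5 CPM or more.

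Per kilobase of exon, PCNA was the most abundant member in the scramble libraries (mean 245 CPM per kb). MCM7 and MCM3, of the helicase ring, followed at 138 and 98.7 CPM per kb, and then TYMS, which makes thymidylate, at 77.8. The lowest were POLE2 (4.52), GINS3 (4.76), CHAF1B (5.18) and CCNE2 (5.30), in the same unit. In bulk RNA, fewer cells in S phase and less RNA of these genes per cell cannot be told apart.

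The main comparison asked whether miR-28 changed these transcripts. Of the 55 members, 0 passed an adjusted p of 0.05 in limma with library batch, where 2 of 12725 genes (0.0157%) passed, and the smallest adjusted p of a member was 1.00. At an unadjusted p under 0.05 the count was 0 of 55 members, against 42 genes (0.330%). edgeR's quasi-likelihood test called 0 genes (0%), with 45 at an unadjusted p under 0.05, and DESeq2 called 2 genes (0.0157%) and 0 members. On log2(CPM + 1), the log2 fold change was positive for 54 of 55 members (47.1% of all genes). The median was 0.22 (all genes -0.01), in a range from -0.23 to 0.50. Their median SE was 0.353, larger than the median change. In edgeR and DESeq2 with batch the median of the members was 0.15, with 53 of 55 above 0 in each (5968 and 6033 of 12725 genes). For every member the values of the groups overlapped (0 of 55 separated; of all genes, 0.0157% were separated with miR-28 higher and 0.0472% with miR-28 lower).

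With the sample pair as a block, which removes the differences between pairs, the median SE fell to 0.125. Again 0 of 55 members passed the adjusted threshold (3 genes, 0.0236%), and the smallest adjusted p was 0.607. At an unadjusted p under 0.05, 9 members were higher (461 genes, 3.62%) and 0 were lower (468 genes, 3.68%). The higher members were GINS2, PRIM2, GMNN, RFC5, CDK2, POLE2, UHRF1, LIG1 and SLBP. Without pairs 3 and 6 this count was 0 of 55, with 2.22% of all genes higher and 3.20% lower.

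The libraries named as repeats were also averaged with the sample they repeat, an alternative chosen after the data had been seen, which left 3 samples a group. The median of the members was then 0.35, with 53 of 55 above 0 (47.5% of all genes), since pair 3 counted for 1 of 3 samples. The medians of the 3 samples were -0.03 (pairs 1, 4 and 5), 0.32 (pairs 2 and 6) and 0.75 (pair 3). limma called 0 genes (0%), with 0 members and 26 genes (0.204%) at an unadjusted p under 0.05. With the sample as a block it again called 0 genes, and 8 members were higher (2.01% of all genes) and 0 lower (1.84%) at that unadjusted threshold.

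Each of the 10 classes had a median above 0, and the differences were largest in pairs 3 and 6. Without pairs 3 and 6 the class medians lay between -0.04 (G1/S control) and 0.05 (chromatin assembly and maintenance methylation). The median difference of the members within a pair, miR-28 minus scramble on log2(CPM + 1), was -0.02 in pair 1, 0.11 in pair 2, 0.75 in pair 3, -0.02 in pair 4, -0.04 in pair 5 and 0.53 in pair 6. The miR-28 library was the higher for 53 of 55 members in pair 3 (49.5% of all genes) and for 53 in pair 6 (49.0%). In pairs 1, 2, 4 and 5 it was the higher for 22, 44, 25 and 20 members, where 50.1%, 46.3%, 47.8% and 52.2% of all genes were. The differences of pairs 3 and 6 correlated over the 55 members with a Pearson r of 0.64. In both pairs 52 members were higher, against 33.0% of all genes.

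**Figure D2:**
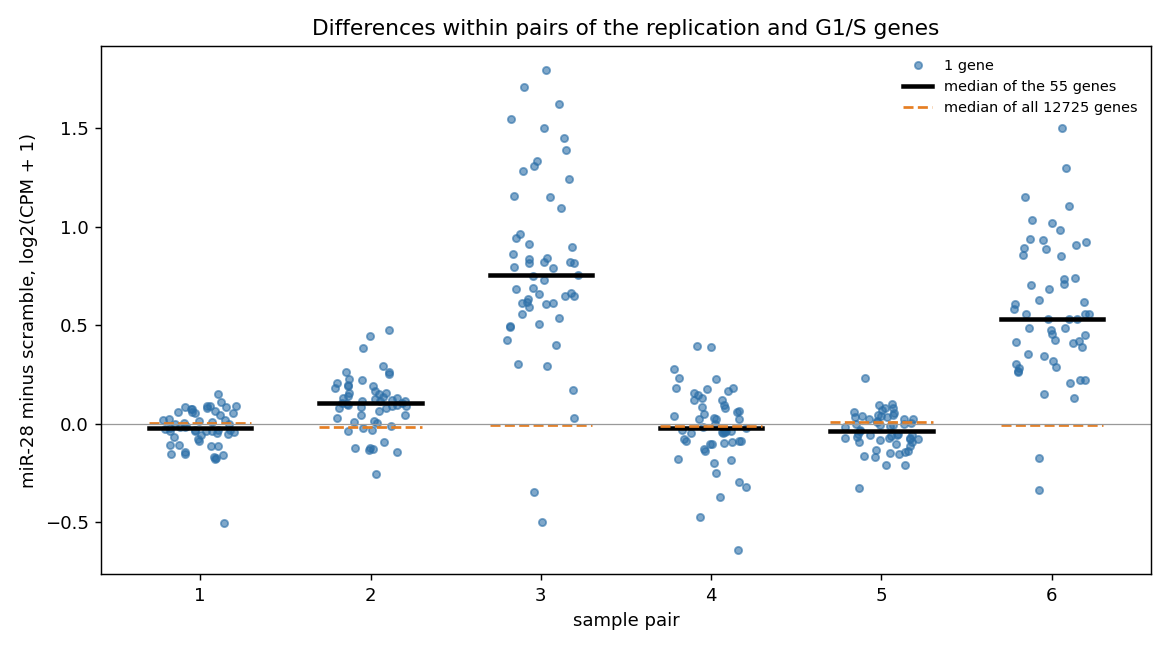
Difference between the miR-28 and the scramble library of each sample pair on log2(CPM + 1), with 1 point per gene, the median of the 55 genes as a black bar and the median of all 12725 genes as a dashed bar. The black bar is at 0.75 in pair 3 and at 0.53 in pair 6; for the others it lies between -0.04 and 0.11.

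Without pairs 3 and 6, 27 of 55 members had a positive log2 fold change (46.9% of all genes), and the median was 0.00. Since these pairs had the largest median differences, a lower median without them follows from the choice of pairs. Without pair 3 alone the median was 0.12, with 52 members above 0 (47.3% of all genes). Without the scramble library of pair 3 alone it was 0.02, with 31 members above 0 (50.1% of all genes). That fit kept the miR-28 library of pair 3 unpaired. Its mean over members was 6.30, against 6.95 and 6.98 in the miR-28 libraries of pairs 1 and 2. Differences in level between pairs therefore entered this median. In pair 3 the mitochondrial share also differed between the libraries, at 7.45% in scramble and 3.43% in miR-28. For pair 6 it was 2.18% and 1.62%. The share was also lower in miR-28 in pairs 1, 2, 4 and 5, whose median differences lay between -0.04 and 0.11. In scramble and miR-28 it was 1.88% and 1.46% in pair 1, 2.38% and 1.91% in pair 2, 2.88% and 2.62% in pair 4, and 1.54% and 1.19% in pair 5. The part of RNA quality or depth in these differences was not tested.

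**Figure D3:**
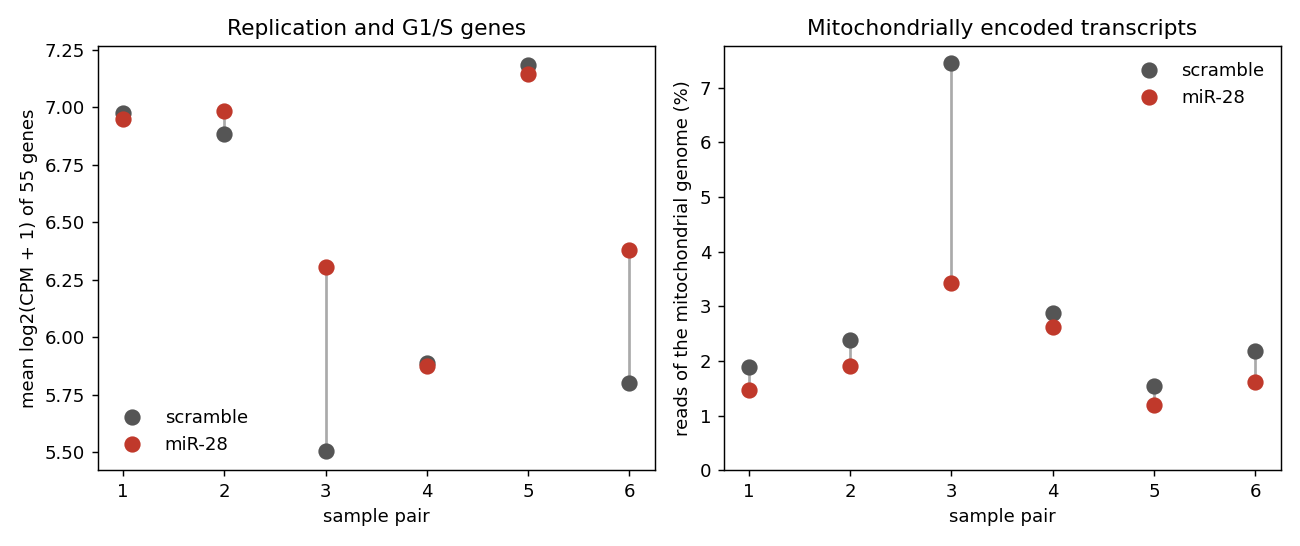
Left, mean log2(CPM + 1) of the 55 genes in each library by sample pair; right, percent of reads from the mitochondrial genome in the same libraries. The scramble library of pair 3 has the lowest mean, 5.51, and the highest mitochondrial share, 7.45%.

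Values of 17 members are given next in the order of their roles. For each, the log2 fold change is miR-28 minus scramble with its SE from the fit with batch, and the adjusted p was 1.00 in that fit. Positions are those of GENCODE release 29 on GRCh38, and all 17 are protein-coding genes.

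Origin licensing had a class median of 0.33 over 5 members, the highest of the 10 classes. CDT1, which brings the MCM ring to origins (ENSG00000167513, chr16:88803213-88809258), ranged from 38.8 to 128 CPM in scramble libraries (median 76.6) and from 43.2 to 155 CPM in miR-28 libraries (median 102). Its highest library was the miR-28 library of pair 3, at 155 CPM against 43.9 CPM in its partner, while pairs 1, 4 and 5 differed by 0.15 log2 units or less. The log2 fold change was 0.43 (SE 0.353), and -0.03 without pairs 3 and 6. GMNN, or geminin, the inhibitor of CDT1, was higher in miR-28 in all 6 pairs, by 0.04 to 1.1 log2 units, with a log2 fold change of 0.33. ORC1 (0.41), of the origin recognition complex, and CDC6 (0.28) also had values above 0. ORC6 of the same complex departed from the others, with differences of 0.03 in pair 3 and 0.39 in pair 4.

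The MCM2 to MCM7 ring had a class median of 0.20 over 6 members. MCM5 (ENSG00000100297, chr22:35400063-35425430) ranged from 124 to 308 CPM in scramble libraries (median 235) and from 182 to 325 CPM in miR-28 libraries (median 257). The lowest value was that of scramble pair 3, and the ranges overlapped from 182 to 308 CPM. MCM2 (ENSG00000073111, chr3:127598223-127622436) ranged from 46.5 to 203 CPM in scramble (median 126) and from 71.4 to 202 CPM in miR-28 libraries (median 121). Pairs 1, 2 and 5 were at 166 CPM or above in both groups, and pairs 3, 4 and 6 were at 85.9 CPM or below. The log2 fold changes were 0.24 (SE 0.247) for MCM5 and 0.13 (SE 0.429) for MCM2. The other members of the ring lay between 0.13 (MCM7) and 0.26 (MCM4), all within 1 SE of 0.

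Helicase activation had a class median of 0.26 over 6 members and, in limma on log2(CPM + 1), held the largest change of any member, that of GINS2. In edgeR and DESeq2 with batch GINS2 had values of 0.29 and 0.30, and CDT1 had the largest, 0.40 and 0.39. GINS2, a subunit of the GINS complex (ENSG00000131153, chr16:85676198-85690073), whose E2F word is printed above, ranged from 28.4 to 191 CPM in scramble (median 97.1) and from 50.6 to 202 CPM in miR-28 libraries (median 123). It was higher in miR-28 in all 6 pairs, by 0.09, 0.04, 1.45, 0.39, 0.08 and 0.93 log2 units in pairs 1 to 6. Among all genes 2.07% were higher in all 6 pairs, and 5 of 55 members were, namely GINS2, PRIM2, POLE2, LIG1 and GMNN; 0 members were lower in all 6 (2.19% of all genes). The log2 fold change of GINS2 was 0.50 (SE 0.518 with batch, 0.176 with the pair as a block), and 0.15 without pairs 3 and 6. CDC45, which joins GINS and MCM in the moving helicase (ENSG00000093009, chr22:19479459-19520612), ranged from 23.5 to 81.4 CPM in scramble (median 54.9) and from 37.3 to 77.3 CPM in miR-28 libraries (median 73.4). Of the miR-28 libraries only that of pair 4, at 37.3 CPM, lay below 63.1 CPM. Its log2 fold change was 0.40 (SE 0.317).

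The clamp and its loader had a class median of 0.19 over 6 members. PCNA (ENSG00000132646, chr20:5114953-5126626) ranged from 175 to 622 CPM in scramble (median 358) and from 213 to 583 CPM in miR-28 libraries (median 359). The groups were nearly level, and the largest difference was that of pair 3, 0.50 log2 units. RFC5, a subunit of the loader (ENSG00000111445, chr12:118013588-118033130), ranged from 26.4 to 71.9 CPM in scramble (median 51.2) and from 34.1 to 70.0 CPM in miR-28 libraries (median 65.4). Here 5 of 6 pairs were higher in miR-28, with pair 5 lower by 0.09. The log2 fold changes were 0.10 (SE 0.377) for PCNA and 0.37 (SE 0.279) for RFC5. Of the other subunits RFC2 had the largest value, 0.39, and RFC3 the smallest, 0.10.

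Polymerases and primase, which lays the RNA primer, had a class median of 0.25 over 9 members. POLA2, the second subunit of polymerase alpha (ENSG00000014138, chr11:65261762-65305589), ranged from 20.6 to 138 CPM in scramble (median 66.2) and from 27.5 to 132 CPM in miR-28 libraries (median 96.0). It was higher in miR-28 by 1.55 and 1.5 log2 units in pairs 3 and 6, and lay within 0.19 of its partner in every other pair. POLE2, the second subunit of polymerase epsilon (ENSG00000100479, chr14:49643555-49688422), was the lowest member per kilobase. It ranged from 3.21 to 27.9 CPM in scramble (median 12.1) and from 4.92 to 28.6 CPM in miR-28 libraries (median 16.9). It was higher in all 6 pairs, by 0.02 and 0.03 in pairs 4 and 5 and by 1.31 and 1.30 in pairs 3 and 6. PRIM1, the catalytic primase (ENSG00000198056, chr12:56731596-56752373), ranged from 18.3 to 57.0 CPM in scramble (median 31.5) and from 19.6 to 51.0 CPM in miR-28 libraries (median 44.7). Pairs 1, 2 and 5 were lower in miR-28 for this gene and pairs 3, 4 and 6 higher. The log2 fold changes were 0.49 (SE 0.524) for POLA2, 0.48 (SE 0.556) for POLE2 and 0.36 (SE 0.329) for PRIM1. POLE, the catalytic subunit of polymerase epsilon, went against the class in pair 3, where it was lower in miR-28 by 0.50, and was higher by 0.61 in pair 6. PRIM2, the regulatory primase subunit, was higher in all 6 pairs, by 0.04 to 0.69 log2 units.

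Okazaki fragment processing and single-strand binding had the lowest class median, 0.11 over 5 members. LIG1, the ligase that seals Okazaki fragments (ENSG00000105486, chr19:48115445-48170603), ranged from 38.6 to 148 CPM in scramble (median 81.7) and from 42.8 to 156 CPM in miR-28 libraries (median 98.3). It was higher in miR-28 in all 6 pairs, but by 0.01 in pairs 1 and 2 and by 0.63 and 1.03 in pairs 3 and 6. Its log2 fold change was 0.32 (SE 0.372). The subunits of RPA, which coats single-stranded DNA, were among the steadiest members, at 0.11 (RPA1), 0.04 (RPA2) and 0.07 (RPA3), and RPA3 was lower in miR-28 by 0.34 in pair 6.

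Nucleotide supply had a class median of 0.25 over 5 members. TK1, thymidine kinase of S phase (ENSG00000167900, chr17:78174075-78187233), ranged from 28.3 to 94.2 CPM in scramble (median 71.2) and from 58.3 to 105 CPM in miR-28 libraries (median 88.7). The scramble library of pair 3 was the lowest, at 28.3 CPM against 94.7 CPM in its partner, and the miR-28 library of pair 6 the highest. Its log2 fold change was 0.45 (SE 0.279), and 0.03 without pairs 3 and 6. TYMS (0.29), RRM1 (0.25), RRM2 (0.20) and DUT (0.19) had smaller values. RRM2, the small subunit of ribonucleotide reductase, was higher in miR-28 by 0.96 and 0.86 in pairs 3 and 6 and lower by 0.64 in pair 4.

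G1/S control had a class median of 0.16 over 5 members and held the single member below 0. E2F1 (ENSG00000101412, chr20:33675683-33686404) ranged from 104 to 167 CPM in scramble (median 152) and from 122 to 259 CPM in miR-28 libraries (median 158). Its highest values, 259 and 240.0 CPM, were those of miR-28 in pairs 3 and 6, libraries whose mean over members was only 6.30 and 6.38 log2 units, and its level followed the other members least (r = 0.16). CCNE1, or cyclin E1 (ENSG00000105173, chr19:29811898-29824308), ranged from 6.60 to 31.7 CPM in scramble (median 19.0) and from 12.2 to 29.4 CPM in miR-28 libraries (median 18.8). CCNE2, or cyclin E2 (ENSG00000175305, chr8:94879770-94896678), ranged from 10.4 to 36.2 CPM in scramble (median 22.2) and from 9.11 to 34.5 CPM in miR-28 libraries (median 19.5). It was lower in miR-28 in 5 of 6 pairs, pairs 3 and 6 among them, by 0.17 to 0.50 log2 units, and higher by 0.45 in pair 2. The log2 fold changes were 0.26 (SE 0.200) for E2F1, 0.15 (SE 0.382) for CCNE1 and -0.23 (SE 0.372) for CCNE2, and that of CCNE2 was -0.21 without pairs 3 and 6. The difference between the cyclins E was not tested. CDK2, their kinase, had a value of 0.23 and was higher in 5 of 6 pairs.

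Chromatin assembly and maintenance methylation had a class median of 0.21 over 5 members. CHAF1A, the large subunit of the histone chaperone CAF-1 (ENSG00000167670, chr19:4402662-4445018), ranged from 81.6 to 147 CPM in scramble (median 113) and from 88.4 to 144 CPM in miR-28 libraries (median 132). It differed by 0.06 or less in pairs 1, 2, 4 and 5, and by 0.79 and 0.49 in pairs 3 and 6. Its log2 fold change was 0.21 (SE 0.183). UHRF1, which guides the methyltransferase DNMT1 to newly copied DNA, had a value of 0.37, and DNMT1 itself one of 0.19. Fork protection and the S phase checkpoint had a class median of 0.22 over 3 members. DTL, which directs CDT1 to destruction (ENSG00000143476, chr1:212035553-212107400), ranged from 32.1 to 90.0 CPM in scramble (median 62.3) and from 50.9 to 82.9 CPM in miR-28 libraries (median 65.6). Again scramble pair 3 was the lowest library and scramble pair 5 the highest, and the log2 fold change was 0.22 (SE 0.263). CLSPN, or claspin, a mediator of the checkpoint, and TIPIN, which protects stalled forks, had values of 0.29 and 0.10.

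**Figure D4:**
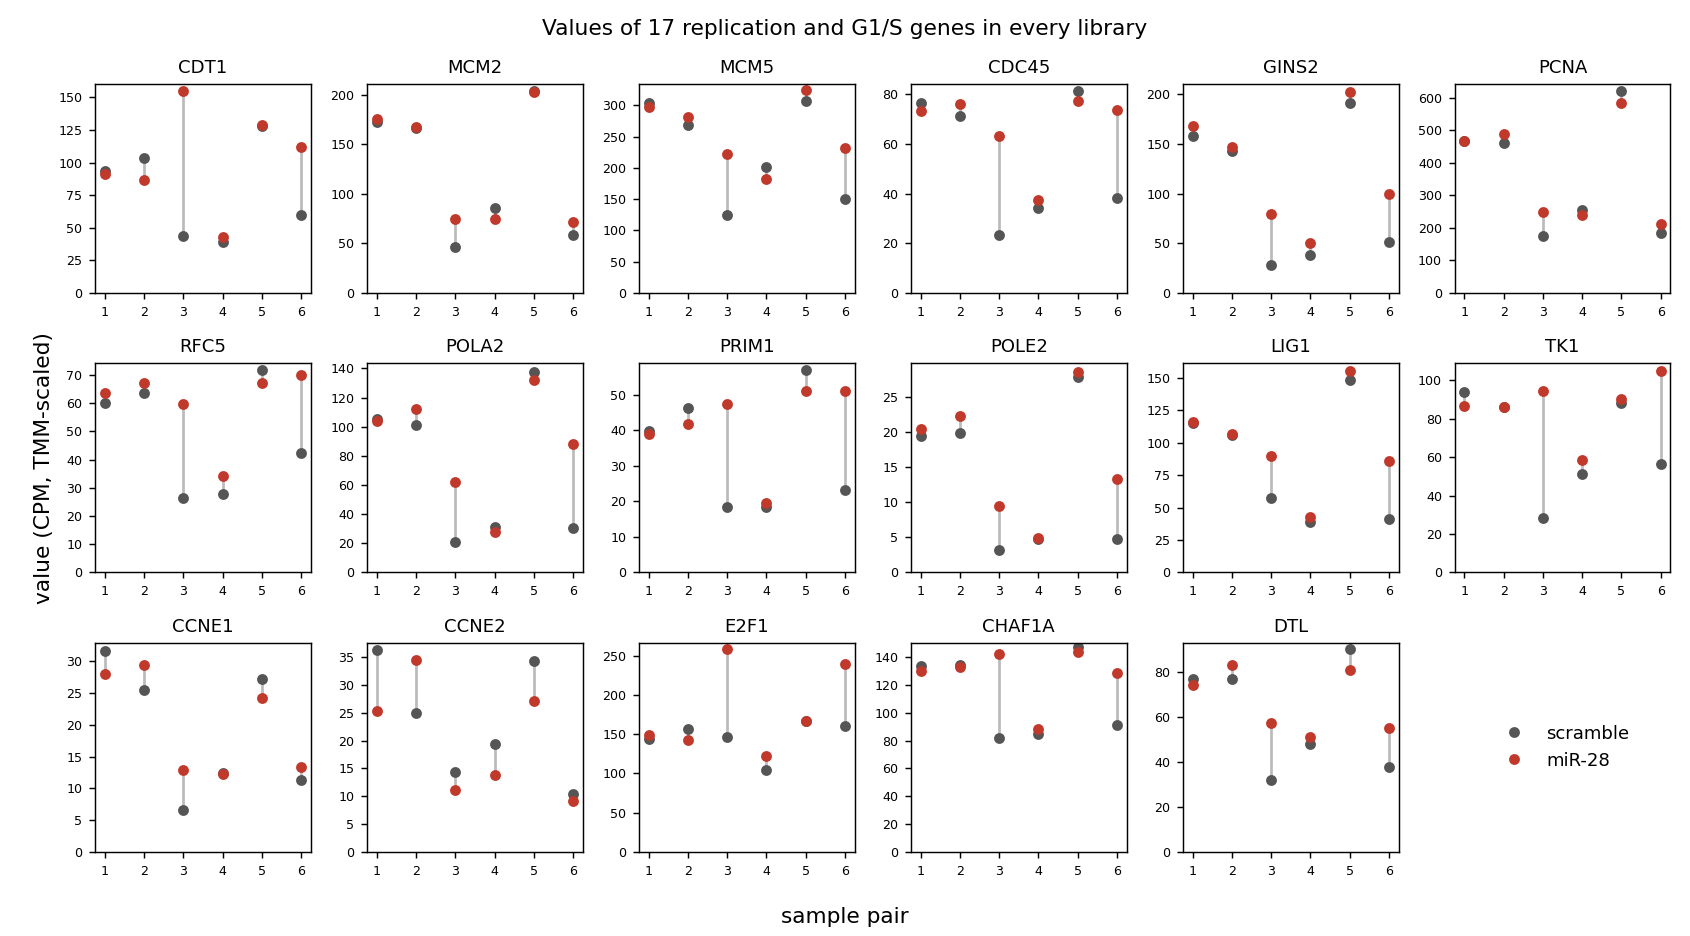
CPM of the 17 genes in each library by sample pair, grey for scramble and red for miR-28, on linear axes that start at 0. In most panels the points of a pair lie close together in pairs 1, 2, 4 and 5 and the red point is above the grey point in pairs 3 and 6; CCNE2 is the exception, with red below grey in 5 of 6 pairs.

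**Figure D5:**
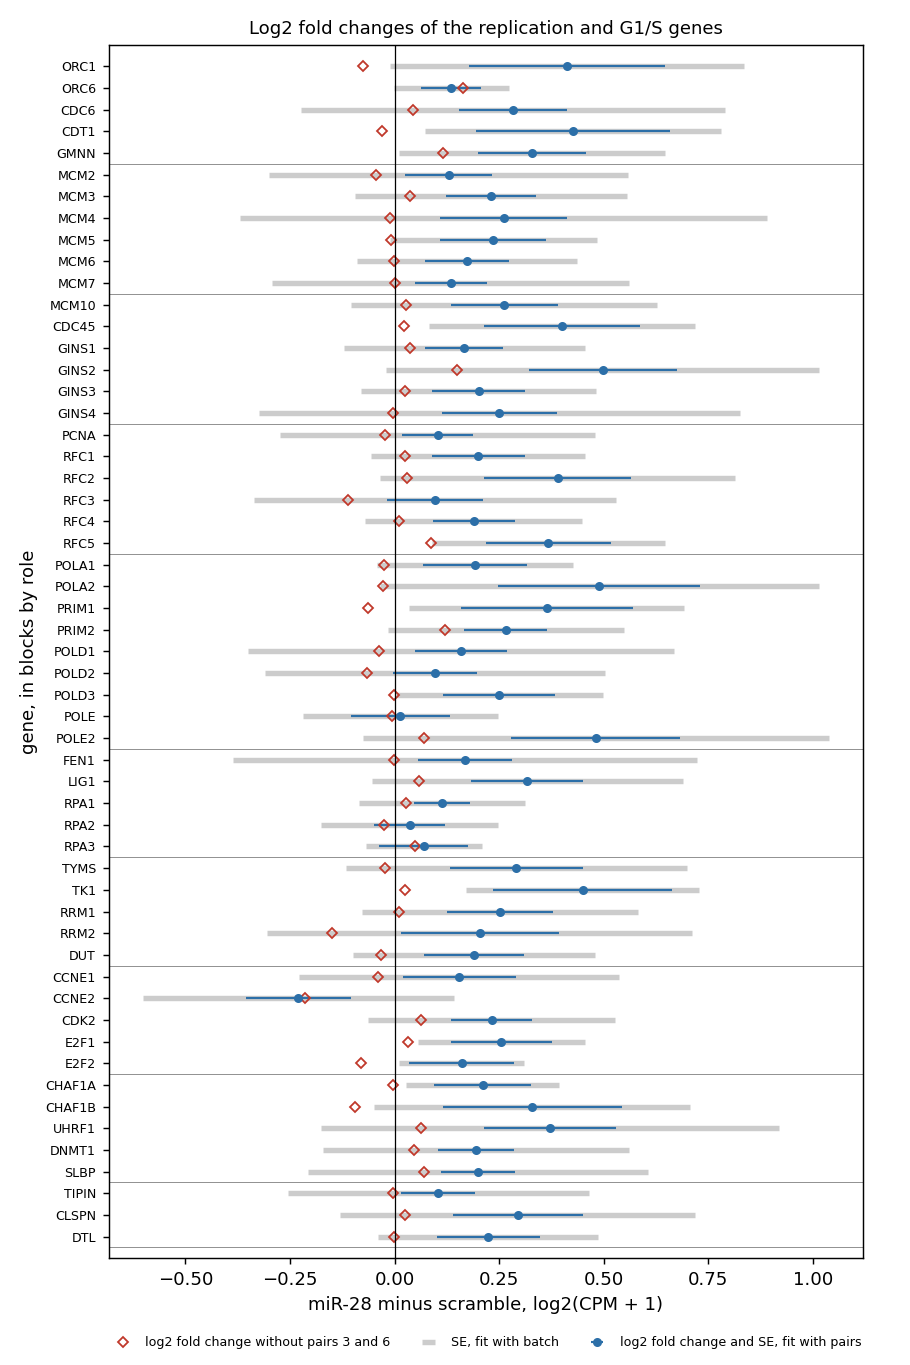
Log2 fold change, miR-28 minus scramble, of each of the 55 genes in blocks by role, with its SE from the fit with batch (grey bar) and from the fit with pairs (blue bar), and the value without pairs 3 and 6 (open diamond). Of the filled points 54 lie above 0, and of the diamonds 27 do.

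The comparison was repeated within batches. In batch 1 alone the median log2 fold change was 0.29, with 53 of 55 members above 0 (48.3% of all genes), and in batch 2 alone it was 0.17, with 52 above 0 (48.2%); limma called 0 genes in each batch, with 13 and 12 genes at an unadjusted p under 0.05 (0.102% and 0.0943%). Each batch contains 1 of the pairs in which the members differed most, pair 3 or pair 6. The interaction of group and batch called 0 of 12725 genes (0%), with 0 members and 9 genes (0.0707%) at an unadjusted p under 0.05, and 171 genes (1.34%) in the fit with the block. The level itself was lower in batch 2 than in batch 1 for 54 of 55 members (46.7% of all genes were higher), by a median of 0.23 log2 units (0.54 without pair 3), and 0 of 12725 genes (0%) passed in limma's batch term, with 37 at an unadjusted p under 0.05. Since batches hold different pairs, the batch and the pair cannot be told apart.

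The comparison was also split by XENO number, which leaves out pair 3, so it is not over the same libraries as the split by batch. In XENO 1 (pairs 1, 4 and 5) the median log2 fold change of the members was -0.03, with 18 of 55 above 0 (48.7% of all genes). In XENO 2 (pairs 2 and 6, a fit of 4 libraries) it was 0.32, with 54 above 0 (47.8%), and 22 members were higher at an unadjusted p under 0.05 (2.00% of all genes), with 0 members past the adjusted threshold (0.0236% of all genes). Both fits had a batch term. In XENO 2 it also removed the difference between pairs, which in XENO 1 it did only in part. The median SE of the members was 0.169 in XENO 2 and 0.447 in XENO 1, so their p-values are not alike. The difference of the effects, XENO 2 minus XENO 1, was tested over these 10 libraries with the pair as a block, a fit chosen after the data had been seen. It had a median of 0.33, and 23 members were higher at an unadjusted p under 0.05 (3.36% of all genes), with 0 genes called (0%), 904 genes at an unadjusted p under 0.05 and a smallest adjusted p of 0.694 among members in limma. Examples were CLSPN (-0.12 and 0.73 in XENO 1 and XENO 2), MCM4 (-0.14 and 0.70) and RRM2 (-0.30 and 0.57). By name each XENO number holds 1 distinct sample and its repeats. The p-values of the XENO fits therefore measure only the spread between repeat libraries and not that between samples. Of the XENO 2 pairs, pair 6 had the median difference of 0.53 given above and pair 2 that of 0.11. Pair 2 thus lay nearer to the XENO 1 pairs, at -0.02, -0.02 and -0.04, than to pair 6.

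The 3′ UTRs of the members were searched for sites of miR-28-5p. The 7-base site AGCTCCT, which pairs with its seed, was in the longest annotated 3′ UTR of 6 of 55 members (10.9%, Wilson 95% interval 5.10% to 21.8%), against 1671 of 10768 genes (15.5%). The members with a site were ORC6, GINS4, POLA1, PRIM1, SLBP and CHAF1B, and the extended 8-base site was in 0 of 55 members and 2.57% of genes. Member 3′ UTRs were shorter, with a median of 935 bases against 1359 bases over genes. Sites of 4 members are shown to give the letters around the match, which is in capitals.
PRIM1: agacagAGCTCCTcaaaccattg
POLA1: cccctccccaAGCTCCTgaagacccgg
ORC6: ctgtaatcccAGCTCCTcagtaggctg
CHAF1B: gatttcttaaAGCTCCTggagtaattc

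The site of PRIM1 begins at base 7 of a 3′ UTR of 93 bases on chromosome 12, that of POLA1 at base 263 of 1036 on chromosome X, that of ORC6 at base 415 of 809 on chromosome 16 and that of CHAF1B at base 1547 of 2649 on chromosome 21. Members with the site had a median log2 fold change of 0.23 and those without it one of 0.22. PRIM1, with the site near its stop codon, had a value of 0.36, and ORC6 one of 0.14.

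Other genes of the pathway, listed with earlier results of these data known, were described in the same fit, and 0 of them passed the adjusted threshold with batch or with the block. Of all genes 47.1% lay above 0 in the fit with batch. In limma with the block 3.62% of all genes were higher and 3.68% lower at an unadjusted p under 0.05. Of 36 measured further genes of initiation and the replisome, 33 had values above 0 (median 0.15), and the fit with the block had 7 higher and 0 lower at an unadjusted p under 0.05. Examples were MTBP (0.27, SE 0.134), which works with TICRR in origin firing, and ATAD5 (0.25, SE 0.136), which unloads PCNA. Of 30 further G1 and G1/S regulators 24 lay above 0, with a median of 0.14, and 4 were higher and 1 lower at that unadjusted threshold. The lower was E2F6, a repressor of the E2F family (-0.30, SE 0.129), and E2F8, another repressor, had a value of 0.35 (SE 0.174).

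Of 28 further genes of nucleotide synthesis 18 lay above 0 (median 0.05), against 47.1% of all genes. The fit with the block had 2 higher (3.62% of all genes) and 3 lower (3.68%) at an unadjusted p under 0.05. DCTD, which deaminates dCMP, had a value of -0.22 (SE 0.164), and RRM2B, the alternative small subunit of ribonucleotide reductase, one of 0.20 (SE 0.176). Of 22 genes of the S phase checkpoint and fork repair 18 lay above 0, with a median of 0.19, and 5 were higher and 0 lower. BARD1, the partner of BRCA1, had a value of 0.29 (SE 0.146). Without pairs 3 and 6 the median was 0.02 for the further replisome genes and 0.06 for the further G1 and G1/S regulators. It was -0.05 for nucleotide synthesis and 0.03 for the checkpoint and fork repair.

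Genes of mitosis were set beside the members as the most similar process. All 54 lay above 0 (47.1% of all genes), with a median of 0.26. The fit with the block had 25 higher (3.62% of all genes) and 0 lower (3.68%) at an unadjusted p under 0.05, against 9 of 55 members higher. Examples were CENPE, a kinetochore motor, with a value of 0.39 (SE 0.180), and NDC80, which ties kinetochores to microtubules, with one of 0.32 (SE 0.162). Without pairs 3 and 6, 46 of 54 mitosis genes and 27 of 55 members lay above 0 (46.9% of all genes), with medians of 0.07 and 0.00. Those pairs were chosen by the differences of the members and not of the mitosis genes, so these values cannot compare the lists. In pair 4 the mitosis median was 0.19 and that of the members -0.02. The difference between the lists was not tested.

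The genes whose level over the 12 libraries was most like the mean of the members were sought among 10333 other genes with a mean of 5 CPM or more. They were DSCC1, of an alternative clamp loader (r = 0.996), USP13, a deubiquitinase (0.995), NME2, a nucleoside diphosphate kinase (0.995), KIFC1, a mitotic kinesin (0.994), and ACOT7, an acyl-CoA thioesterase (0.994). Reads of NME2 may be shared with its near copy NME1. These r are descriptions over libraries that share pairs. DSCC1 ranged from 19.6 to 106 CPM in scramble and from 28.8 to 96.9 CPM in miR-28 libraries, with the scramble library of pair 3 again the lowest.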

How the data were processed

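Polyadenylated RNA of 12 libraries was sequenced; CASAVA 1.8.2, cutadapt and RSEM 1.2.3, on build GRCh38, are the tools in the submitters' processing notes. The authors deposited 1 table of signal values for 12725 genes, with no replicates pooled; its normalization is not given in the sources used here. Within each library the values were whole multiples of a single step, to 0.01 reads (100% of values), and TMM factors recomputed from these reads matched within 2.2e-16, so the deposited signal is called CPM scaled by TMM. The value of 3 reads was 0.0830 to 0.181 CPM, a floor that covers counting error only.

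The main test was limma 3.58.1 (trend) in R 4.3.3 on log2(value + 1), with terms for group and for library batch, over all 12725 genes with Benjamini-Hochberg adjustment and a threshold of 0.05; no further filter was set. Fold changes on this scale understate those of low genes. Count tests on the recovered reads used edgeR 4.0.16 and DESeq2 1.42.0. The limma fit with batch and the limma fit with the pair as a block were run on simulated data, and the outcome is not reported here. The simulation planted the same change in every pair, so it cannot show how these fits behave where pairs differ, as they do here. The other fits were not run on simulated data.

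The labels name sample pairs. Deviations from the group means correlated between both libraries of a pair by 0.697 to 0.882, in every case above those of the same libraries with other pairs, and the pair was also used as a block.

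Members and lists were chosen with earlier results of these data known. Values are printed for the member with the smallest unadjusted p in each class, the 3 largest changes, every member that passed or lay below 0, and PCNA, MCM2, CCNE1 and E2F1; examples from other lists are the smallest unadjusted p, 1 of which is not reported here, and other named members were chosen after their values were seen. Symbols matched 12528 genes. Gene positions, exon lengths and 3′ UTRs came from GENCODE release 29, which may differ from the authors' release, and promoters from RefSeq (GRCh38.p14). No strand setting is given, so reads of overlapping genes are uncertain. Alternatives covered the tool, the scaling, the pseudocount, the filter, the block, batches and XENO numbers alone, libraries left out, and repeat libraries averaged.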

Additional observations from a re-analysis of the deposited data

Results flagged for a closer look

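In 5 of 52 sets of 6 values, a single value lay far from the others by Dixon's test at the 95% level. Chance gives about 1 such set in 20 where values are independent. These sets share libraries, and the 6 values include named repeats, so the count cannot be set against that rate. CDC45, RFC5 and CHAF1A were each lowest in the miR-28 library of pair 4, at 37.3, 34.1 and 88.4 CPM, where the next lowest miR-28 values were 63.1, 59.7 and 129 CPM. E2F1 was lowest in the scramble library of pair 4, at 104 CPM, against 144 CPM for the next. In pair 4 both libraries were low for most members, and its mitochondrial share was 2.88% and 2.62%. The difference of CCNE2 within pairs was highest in pair 2, at 0.45 log2 units, and below 0 in the other 5 pairs.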

How the results depend on the processing

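The count of 0 members past the adjusted threshold was the same under every alternative run, and of 731 values of the 17 members under 43 alternatives 0 had another call and 35 another sign. The count of members above 0, 54, was 18 in XENO 1 alone, 27 without pairs 3 and 6 with batch or with the replicate block, and 31 to 54 when a single library was left out, the lowest without the scramble library of pair 3; without a pair it was 52 to 54. The median, 0.22, ranged from 0.02 to 0.41 without a single library and from 0.12 to 0.27 without a pair. In edgeR and in DESeq2 with batch it was 0.15. A fit without a single library left its partner unpaired, so differences in level between pairs entered those counts and medians. The count of genes called, 2, was 0 in edgeR, with a mean of 5 CPM or more, without the TMM factor, in XENO 1 alone, in each batch alone, without pairs 3 and 6 and with repeats averaged, and 0 to 0 without any single library or pair. With the replicate block it was 3, without a pair 0 to 3, without pairs 3 and 6 it was 4, and in edgeR with the block 1; the block changed no call of a member. With repeats averaged, with or without the sample as a replicate block, the genes called were 0 and the median 0.35. In the 250 bases before the start alone the share of member promoters with an E2F word was 34.0% (2.79% of all promoters), and the longer miR-28-5p site was in 0 members. The causes were not tested. Each member had at least 72 reads in every library; whether depth bears on the differences was not tested.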

Other observations

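The mitochondrially encoded transcripts had a median difference below 0 in every pair, also where the members had one near 0. All 13 had a log2 fold change below 0, with a median of -0.45 and a range from -0.61 to -0.33, and 12 were lower in miR-28 in all 6 pairs (2.19% of all genes). Their median difference was -0.28, -0.35, -1.18, -0.17, -0.38 and -0.52 in pairs 1 to 6, where that of the members was -0.02, 0.11, 0.75, -0.02, -0.04 and 0.53. Without pairs 3 and 6, which were chosen by the differences of the members, the median of the mitochondrial transcripts was -0.31 and that of the members 0.00. In limma 0 of 13 passed the adjusted threshold in the fit with batch or in that with the block. At an unadjusted p under 0.05, 1 of 13 was lower in the first fit, and 13 of 13 in the second (3.68% of all genes).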
